A study of Saccharomyces cerevisiae with 8 samples.

Results

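The genes described here encode the subunits of the nuclear RNA polymerases of the yeast Saccharomyces cerevisiae. They were taken by name, each through the systematic name that the array files give its probe, and all 31 were found, each with 1 probe printed on 2 spots, among 5816 genes tested. By enzyme they fall into 7 subunits of Pol I alone, 10 of Pol III alone, 2 shared by Pol I and Pol III, 5 shared by all 3 enzymes and 7 of Pol II alone. All 31 were well above background on all 8 arrays.

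RNA was measured in the diploid laboratory strain BY4743 after 3 h at 30 °C and 130 rpm in 120 ml of rich YPD medium. The 4 control arrays came from cultures without isopropanol (0 g/l) and the 4 isopropanol arrays from cultures with 40 g/l isopropanol, an alcohol also called 2-propanol. The unit g/l is that of the source names and characteristics, while the free-text descriptions have mg/l for the same number. The series design also names a culture with 20 g/l isopropanol, which is not analysed here. Both groups share the deletions of the strain. Of 16 readings of the spots for URA3, which BY4743 lacks, 0 were above background, and of 16 for LEU2, lacking as well, 1 was.

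Pol I makes the large ribosomal RNA precursor, Pol II makes messenger RNA, and Pol III makes transfer RNA and 5S ribosomal RNA. The enzymes are built on one plan: a pair of large catalytic subunits, an assembly pair, a stalk, a small zinc-ribbon subunit and a set of small subunits that all of them contain. Pol I and Pol III carry further subunits that resemble the Pol II initiation factors TFIIF and TFIIE. In growing yeast most transcription is ribosomal and transfer RNA synthesis, and transcripts for Pol I and Pol III subunits are known to move with those for ribosome assembly.

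Each value below is a log2 signal relative to the 75th percentile of its array, and a change is the isopropanol mean minus the control mean (n = 4 and 4). The 75th percentile lay between 1309 and 1675 intensity units on the control arrays and between 1801 and 2449 on the isopropanol arrays, and 92.3 to 95.9% of yeast spots were well above background. The members varied between arrays with a median SD of 0.06 in both groups. Each group had a slide to itself, the controls slide 1 and the treated cultures slide 2. No scan held arrays of both groups: the controls were in scans 1 and 2 and all isopropanol arrays in scan 3. Therefore the effects of slide and scan and that of isopropanol cannot be told apart. The series design speaks of at least 3 independent experiments per concentration, but no label says which of the 4 arrays of a group share one, so the p-values reflect array-to-array spread alone, and that spread may be technical. Control replicate 3 had a scan of its own, and isopropanol replicate 1 had spike-in RNAs at -1.76 on this scale, where its fellow isopropanol arrays had them between -0.24 and 0.00082. Without these 2 arrays the counts of lower and higher subunit genes were the same as with them.

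With isopropanol 23 of the 31 subunit genes fell, 2 rose and 6 did not pass the test (limma, Benjamini-Hochberg adjusted p under 0.05 over all genes). Over all 5816 genes 30.1% fell, 47.6% rose and 77.8% passed in either direction. That balance depends on the scale: 1398 genes fell and 1053 rose with normexp background correction, 2235 and 2049 after quantile normalization, 2447 and 2009 after median centring, and 2126 and 2198 with cyclic loess, against 1753 and 2771 on the reported scale. The median change of the subunit genes was -0.33 (log2), against 0.11 over all genes, and 22 of the 31 lay below the lower quartile of all genes, which was -0.21. The control and isopropanol arrays did not overlap for 25 of the 31, where 73.2% of all genes had groups that did not overlap. On the reported scale no subunit gene moved by 2-fold: the largest fall was 1.78-fold (RPO26) and the largest rise 1.17-fold (RPC37). RPC17 fell by just over 2-fold after quantile normalization (log2 -1.008) and with cyclic loess (log2 -1.005). In samples of whole cultures, fewer cells with a transcript and less of it per cell cannot be told apart. These are changes relative to the bulk of the signal on each array. Scaled instead on 5 spike-in probes, 0 of the 31 fell and 11 rose (median 0.84, against 1.27 for all genes, of which 19 fell and 4525 rose). Without isopropanol replicate 1 on that scale, 0 fell and 18 rose (0.44 against 0.86). The spike-ins lay between -1.76 and 0.99 relative to the 75th percentile of their array. Every subunit gene had the same SE on the spike-in scale, 0.44, and 0.19 without that replicate. The counts that rose there only mark which changes cleared a common cutoff.

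**Figure D1:**
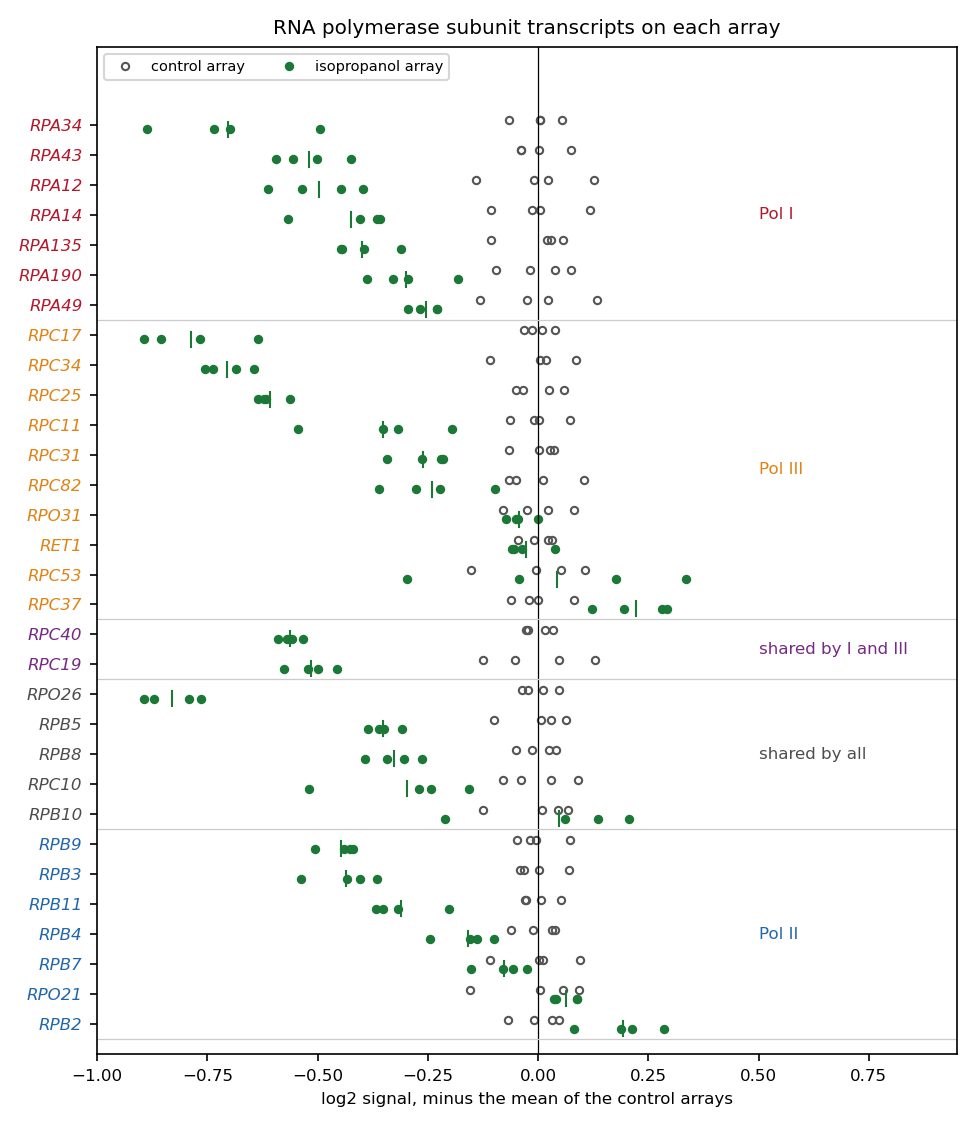
Log2 signal of the 31 subunit transcripts on each array (x axis, relative to the mean of the 4 control arrays), with genes on the y axis grouped and coloured by enzyme. Open circles are control arrays, filled circles isopropanol arrays and short lines their mean: all 7 Pol I genes lie to the left of their controls, while RPO31, RET1, RPC53, RPB10, RPB7 and RPO21 overlap them.

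The subunits that all 3 polymerases contain held the gene with the largest fall on the reported scale. RPO26 encodes a small core subunit (Rpb6 in Pol II) that is needed for the stability of the enzymes. It stood at 2.97, 3.04, 2.96 and 3.00 on the control arrays and 2.10, 2.23, 2.20 and 2.12 on the isopropanol arrays. All isopropanol arrays were below all control arrays, a fall of 1.78-fold (log2 -0.83, SE 0.04; limma adjusted p = 6.11e-08). RPO26 kept the largest fall with normexp (-0.83) and after median centring (-0.98). After quantile normalization (-0.68) and with cyclic loess (-0.56), RPC17, RPC25 and RPC34 fell more. RPB5, which encodes a subunit near the incoming DNA, stood at 0.07, -0.04, 0.09 and 0.13 on the control arrays and -0.29, -0.32, -0.30 and -0.25 on the isopropanol arrays, a fall of 1.28-fold (log2 -0.35, SE 0.04; limma adjusted p = 4.18e-05). RPB8, for another small core subunit, stood at 0.60, 0.56, 0.65 and 0.64 on the control arrays and 0.27, 0.31, 0.22 and 0.35 on the isopropanol arrays, a fall of 1.25-fold (log2 -0.33, SE 0.04; limma adjusted p = 4.88e-05). In both genes the groups were apart.

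RPC10 and RPB10 encode a pair of very small zinc-binding subunits of all 3 enzymes. RPC10 fell 1.23-fold (log2 -0.30, SE 0.08; limma adjusted p = 0.00437), with isopropanol arrays between -1.40 and -1.03 and control arrays between -0.96 and -0.79. RPB10 stood at -1.01, -1.14, -0.97 and -0.95 on the control arrays and -0.96, -0.81, -0.88 and -1.23 on the isopropanol arrays. Its isopropanol replicate 4 lay below every control array and the other isopropanol arrays lay at or above most of them. Its change of 0.048 (95% interval -0.14 to 0.24) did not pass (limma adjusted p = 0.619), and its sign turned with normexp background correction, quantile normalization, median centring and cyclic loess.

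All 7 genes for subunits of Pol I alone fell, where 30.1% of all genes fell, with changes from -0.70 to -0.25 and a median of -0.42. RPA34 and RPA49 encode the TFIIF-like pair of Pol I, which acts in elongation and initiation. RPA34 stood at 0.67, 0.60, 0.72 and 0.67 on the control arrays and -0.22, 0.17, -0.04 and -0.07 on the isopropanol arrays, a fall of 1.63-fold (log2 -0.70, SE 0.07; limma adjusted p = 9.54e-06). The groups were apart, and the isopropanol arrays spread more widely (SD 0.16) than the control arrays (SD 0.05). RPA49, its partner, had the smallest fall of the 7, 1.19-fold (log2 -0.25, SE 0.06; limma adjusted p = 0.00178), and with normexp it did not pass (-0.10, adjusted p = 0.121).

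RPA43 and RPA14 encode the Pol I stalk, and Rpa43 is the subunit that the initiation factor Rrn3 binds. RPA43 stood at 0.83, 0.71, 0.71 and 0.75 on the control arrays and 0.16, 0.25, 0.19 and 0.32 on the isopropanol arrays, so that the lowest control array was 0.39 above the highest isopropanol array, and fell 1.43-fold (log2 -0.52, SE 0.05; limma adjusted p = 4.07e-06). RPA14 fell 1.34-fold (log2 -0.42, SE 0.06). RPA12, for the zinc-ribbon subunit that helps the enzyme cleave RNA and terminate, stood at -0.89, -1.05, -0.92 and -0.79 on the control arrays and -1.31, -1.36, -1.45 and -1.53 on the isopropanol arrays, a fall of 1.41-fold (log2 -0.50, SE 0.07; limma adjusted p = 5.26e-05). Each of these small Pol I subunits was lower on every isopropanol array than on any control array. Of all genes 73.2% had groups that did not overlap in either direction.

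The catalytic subunits of Pol I had smaller changes than most of its small ones, a difference that was not tested. RPA135, for the second largest subunit, fell 1.32-fold (log2 -0.40, SE 0.05; limma adjusted p = 3.62e-05). RPA190, for the largest, fell 1.23-fold (log2 -0.30, SE 0.06; limma adjusted p = 0.000603), from 1.22 ± 0.07 to 0.92 ± 0.09 (SD, n = 4). Its value on control replicate 2 rests on 1 spot, since the other, at 0.51 against 1.29, was marked as an outlier by the scanner software. In the authors' processed values RPA190 did not pass (-0.19, adjusted p = 0.0507), nor with normexp (-0.14, adjusted p = 0.21).

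RPC40 and RPC19 encode the assembly pair that Pol I and Pol III share, and both fell. RPC40 stood at 1.52, 1.46, 1.50 and 1.46 on the control arrays and 0.93, 0.92, 0.95 and 0.90 on the isopropanol arrays. The arrays of each group lay within 0.06 of each other and the groups were 0.51 apart, a fall of 1.48-fold (log2 -0.56, SE 0.04; limma adjusted p = 2.64e-07). RPC19 stood at 1.27, 1.02, 1.19 and 1.09 on the control arrays and 0.62, 0.64, 0.56 and 0.68 on the isopropanol arrays, a fall of 1.43-fold (log2 -0.51, SE 0.06; limma adjusted p = 1.62e-05). Its duplicate spots differed by up to 0.49 on an array, the widest of any subunit gene, where the median difference was 0.05.

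Pol III was divided: of its 10 own subunit genes 6 fell, 1 rose and 3 did not pass. Over all genes 30.1% fell and 47.6% rose. The changes of the 10 ran from -0.79 to 0.22. The stalk genes were among those that fell most. RPC17 stood at -1.69, -1.74, -1.72 and -1.76 on the control arrays and -2.37, -2.50, -2.62 and -2.58 on the isopropanol arrays, a fall of 1.73-fold (log2 -0.79, SE 0.06; limma adjusted p = 6.01e-07). RPC25, for the other stalk subunit, stood at -0.58, -0.52, -0.48 and -0.59 on the control arrays and -1.16, -1.10, -1.18 and -1.16 on the isopropanol arrays, a fall of 1.52-fold (log2 -0.61, SE 0.04; limma adjusted p = 3.34e-07). In both, the gap between the groups (0.60 and 0.51) was wider than the spread within either.

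The TFIIE-like group of Pol III, which serves initiation, fell throughout but to different degrees. RPC34 encodes the subunit that touches the initiation factor TFIIIB. It stood at 0.23, 0.42, 0.35 and 0.34 on the control arrays and -0.35, -0.31, -0.40 and -0.42 on the isopropanol arrays, a fall of 1.63-fold (log2 -0.71, SE 0.05; limma adjusted p = 5.12e-07). Its partners RPC31 (1.20-fold, log2 -0.26, SE 0.04) and RPC82 (1.18-fold, log2 -0.24, SE 0.06) also passed (limma adjusted p = 0.00033 and 0.00494), and for RPC82 the groups were only 0.03 apart.

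RPC53, RPC37 and RPC11 encode subunits that work together in termination and reinitiation, and they went different ways. RPC11, the zinc-ribbon subunit, fell 1.28-fold (log2 -0.35, SE 0.07; limma adjusted p = 0.000857). RPC37 stood at -0.09, -0.19, -0.17 and -0.23 on the control arrays and 0.11, -0.05, 0.03 and 0.12 on the isopropanol arrays, a rise of 1.17-fold (log2 0.22, SE 0.05; limma adjusted p = 0.00237), which did not pass after median centring (0.07, adjusted p = 0.217). RPC53 stood at -2.01, -2.12, -2.06 and -2.26 on the control arrays and -1.94, -2.41, -2.15 and -1.78 on the isopropanol arrays. Its isopropanol arrays reached from below to above all of its control arrays, and its change of 0.043 (95% interval -0.22 to 0.31; limma adjusted p = 0.754) turned negative without passing under normexp, quantile normalization, median centring and cyclic loess.

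The catalytic subunits of Pol III did not pass. RPO31, for the largest, stood at -0.19, -0.29, -0.13 and -0.24 on the control arrays and -0.29, -0.26, -0.26 and -0.21 on the isopropanol arrays, a change of -0.042 (95% interval -0.14 to 0.057; limma adjusted p = 0.399). RET1, for the second largest, stood at 0.46, 0.47, 0.40 and 0.43 on the control arrays and 0.40, 0.39, 0.38 and 0.48 on the isopropanol arrays, a change of -0.028 (95% interval -0.12 to 0.061; limma adjusted p = 0.537). In both genes the groups overlapped. After median centring both passed as lower (-0.20 and -0.18, adjusted p = 0.00187 and 0.00189).

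Among the 7 subunit genes of Pol II alone 4 fell, 1 rose and 2 did not pass, with a median of -0.16. Over all genes 30.1% fell and 47.6% rose, with a median of 0.11. RPB9, for the zinc-ribbon subunit that serves the accuracy of transcription, stood at -0.91, -0.94, -0.89 and -0.82 on the control arrays and -1.31, -1.32, -1.33 and -1.39 on the isopropanol arrays, a fall of 1.36-fold (log2 -0.45, SE 0.04; limma adjusted p = 3.92e-06). RPB3 and RPB11 encode the Pol II assembly pair. RPB3 stood at 0.47, 0.54, 0.43 and 0.43 on the control arrays and 0.06, 0.03, 0.10 and -0.07 on the isopropanol arrays, a fall of 1.35-fold (log2 -0.44, SE 0.05; limma adjusted p = 1.44e-05). RPB11 stood at 1.58, 1.61, 1.57 and 1.66 on the control arrays and 1.29, 1.40, 1.25 and 1.24 on the isopropanol arrays, a fall of 1.24-fold (log2 -0.31, SE 0.05; limma adjusted p = 0.000137). In these 3 genes every isopropanol array was below every control array, where 73.2% of all genes had groups that did not overlap in either direction.

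RPB4 and RPB7 encode the Pol II stalk, which can leave the enzyme and has been linked to messenger RNA decay as well. RPB4 fell 1.12-fold (log2 -0.16, SE 0.04; limma adjusted p = 0.00756), with the groups 0.04 apart, and did not pass with normexp, quantile normalization or cyclic loess (adjusted p = 0.0767, 0.053 and 0.0579). RPB7 stood at -0.28, -0.49, -0.38 and -0.37 on the control arrays and -0.40, -0.44, -0.46 and -0.53 on the isopropanol arrays, a change of -0.078 (95% interval -0.19 to 0.036; limma adjusted p = 0.184). The groups overlapped, but RPB7 passed as lower after quantile normalization and median centring (adjusted p = 0.0358 and 0.00189).

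The catalytic subunits of Pol II were not lower on the reported scale. RPO21, for the largest subunit, whose tail recruits RNA processing factors, stood at 0.75, 0.79, 0.70 and 0.54 on the control arrays and 0.73, 0.78, 0.78 and 0.73 on the isopropanol arrays, a change of 0.064 (95% interval -0.059 to 0.19; limma adjusted p = 0.307). It passed as higher with normexp, quantile normalization and cyclic loess (0.16 to 0.18), but had a negative sign after median centring (-0.091). RPB2, for the second largest, stood at -0.55, -0.67, -0.57 and -0.61 on the control arrays and -0.52, -0.41, -0.39 and -0.32 on the isopropanol arrays, a rise of 1.14-fold (log2 0.19, SE 0.05; limma adjusted p = 0.00569). The lowest isopropanol array was 0.03 above the highest control array, and the rise did not pass after quantile normalization (0.12, adjusted p = 0.0759) or median centring (0.037, adjusted p = 0.532).

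Subunits at corresponding positions of the enzymes were then compared directly, through the log2 ratio of both signals within each array, which a shift of a whole array cannot move, though quantile normalization and cyclic loess can. In all 17 ratios were formed. In 10 of them the groups did not overlap, each at an exact two-sided permutation p of 0.0286, the smallest that 70 splits of the arrays allow, and a Benjamini-Hochberg adjusted p of 0.0486 over the 17. Since 10 ratios at that floor are just enough for the adjusted threshold, 1 fewer would leave none past it. None of the 10 met it in the authors' processed values or in 6 of the 8 comparisons that left out 1 array. Ratios of other gene pairs are not given here, and 73.2% of all genes had groups that did not overlap. The count of 10 in 17 can therefore not be called particular to the polymerases.

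At 4 positions, the largest and second largest subunits and both stalk subunits, Pol I differed from Pol II. RPA135 changed relative to RPB2 by -0.59 (SD 0.09 in control and 0.05 in isopropanol arrays). The ratio stood at -0.53, -0.58, -0.66 and -0.60 on the isopropanol arrays, against -0.10 to 0.12 on the control arrays, both set against the control mean. RPA43 over RPB7 changed by -0.44, RPA190 over RPO21 by -0.36 and RPA14 over RPB4 by -0.26. In each of these the Pol I ratio was lower on every isopropanol array than on any control array. In the authors' processed values RPA190 over RPO21 was smaller, at -0.27 (exact permutation test, adjusted p = 0.149). The other ratios of this paragraph were of the same size there. Their adjusted p was 0.0607 by the same test, because the RPA190 ratios were no longer at the smallest p and fewer ratios shared it.

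The largest changes of Pol III relative to Pol II were at the stalk. RPC17 over RPB4 changed by -0.63 (SD 0.06 in control and 0.07 in isopropanol arrays), with isopropanol arrays at -0.54, -0.63, -0.65 and -0.70 against -0.072 to 0.069 on the control arrays. RPC25 over RPB7 changed by -0.53 and RET1 over RPB2 by -0.22, again with groups apart. The change of RET1 over RPB2 was -0.067 after quantile normalization and -0.11 with cyclic loess and did not pass there (exact permutation test, adjusted p = 0.259 and 0.104). RPO31 over RPO21 changed by -0.11 with groups that overlapped (exact permutation p = 0.229). It was -0.24 after quantile normalization, where it passed (exact permutation test, adjusted p = 0.0405), and -0.20 with cyclic loess, where it did not (adjusted p = 0.081).

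Between Pol I and Pol III the direction depended on the position. The catalytic genes of Pol I fell relative to those of Pol III: RPA135 over RET1 changed by -0.37 and RPA190 over RPO31 by -0.26, and the groups of both did not overlap. RPA190 over RPO31 was smaller and did not pass after quantile normalization (-0.10), with cyclic loess (-0.13) or in the authors' processed values (-0.16; exact permutation test, adjusted p = 0.173, 0.162 and 0.0971). At the smaller stalk subunit the ratio of RPA14 over RPC17 rose by 0.36, with isopropanol arrays at 0.28, 0.40, 0.49 and 0.29 against -0.073 to 0.13 on the control arrays, and by 0.59 and 0.60 after quantile normalization and cyclic loess. At the larger stalk subunit RPA43 over RPC25 changed by 0.089, with groups that overlapped (exact permutation p = 0.229), but it passed as higher after quantile normalization and cyclic loess (0.28 and 0.24; adjusted p = 0.0405 and 0.0442).

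At the zinc-ribbon and assembly positions no ratio had groups apart on the reported scale. RPA12 over RPB9 changed by -0.050, RPC11 over RPB9 by 0.10 and RPA12 over RPC11 by -0.14 (exact permutation p = 0.257, 0.143 and 0.0857). RPC40 over RPB3 changed by -0.13 and RPC19 over RPB11 by -0.20 (exact permutation p = 0.0571 and 0.0857). After quantile normalization and cyclic loess, RPA12 over RPC11 (-0.17 and -0.18) and RPC19 over RPB11 (-0.24 and -0.26) passed as lower (exact permutation test, adjusted p = 0.0405 and 0.0442), whereas RPC40 over RPB3 was -0.035 and -0.043. With normexp RPC11 over RPB9 (-0.091) and RPA12 over RPC11 (0.059) had the opposite sign. A ratio that does not pass does not show that both genes moved alike.

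**Figure D2:**
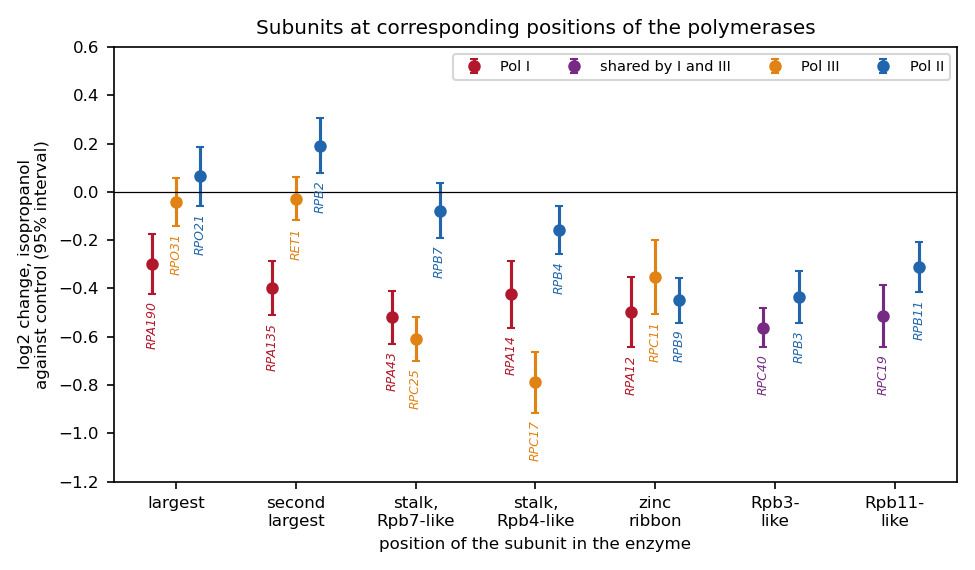
Log2 change of subunits at corresponding positions (x axis) with 95% intervals from limma (y axis, isopropanol against control, n = 4 and 4), coloured by enzyme. Pol II lies highest at the catalytic and stalk positions, while RPA12, RPC11 and RPB9 lie between -0.50 and -0.35 with intervals that overlap.

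The catalytic genes also had a higher median change than the other subunit genes when the 3 enzymes were pooled. The ranges overlapped, from -0.40 to 0.19 for the catalytic genes and from -0.83 to 0.22 for the others. This grouping was made after the values were seen and is therefore given with no test. Of the 6 genes for largest and second largest subunits 2 fell (RPA190 and RPA135), 1 rose (RPB2) and 3 did not pass, with a median of -0.035. Of the 25 other subunit genes 21 fell, 1 rose (RPC37) and 3 did not pass (RPC53, RPB10 and RPB7), with a median of -0.35. Over all genes 30.1% fell and 47.6% rose. The 6 catalytic genes are also the subunit genes longer than 3000 bp. Over all 5562 genes with a length in the RefSeq table, those of 3000 bp or longer had a median change of 0.19 and fell in 18.4% of cases, against 0.0015 and 39.4% for those under 500 bp. The rank correlation of change with length was 0.32 over the 31 subunit genes and 0.15 over all 5562 genes, as a description, since genes share the arrays and are not independent. The part of length in the difference was not tested.

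Changes on these arrays went with signal as well: the median change was 0.54 in the lowest of 10 equal classes of mean signal and -0.29 in the highest. The subunit genes lay in the upper 7 classes, 10 of them in class 8 and 7 in class 9. Within these classes, 27 of the 31 lay below the median of their own class and 17 below its lower quartile. The 4 above the median were RPC37, RET1, RPO21 and RPB2. After cyclic loess, a normalization by signal, 22 subunit genes fell and 3 rose, with a median of -0.37 against 0.0082 over all genes. The part of signal in the subunit changes was not tested.

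**Figure D3:**
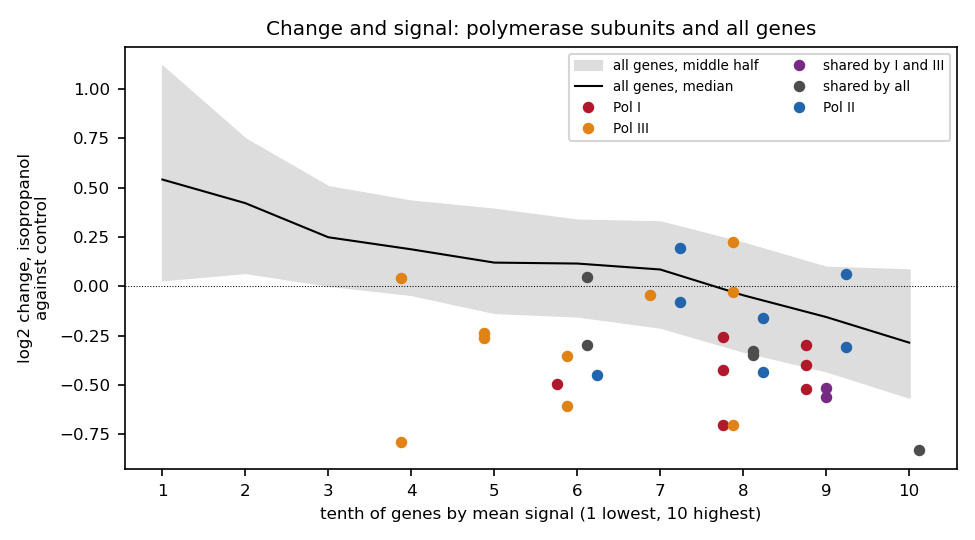
Log2 change (y axis) of the 31 subunit genes by class of mean signal (x axis, 1 lowest to 10 highest), as points coloured by enzyme, over the median (line) and range between the quartiles (grey) of all 5816 genes. Most points lie below the line, and RPC17, at -0.79 in class 4, lies farthest under it.

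Across 5 scales other than the spike-ins (75th percentile, normexp, quantile, median centring and cyclic loess), 20 of the subunit genes were called lower on every one. They were RPA135, RPA34, RPA43, RPA14 and RPA12 of Pol I, RPC82, RPC34, RPC31, RPC25, RPC17 and RPC11 of Pol III, both subunits shared by Pol I and III, RPB5, RPO26, RPB8 and RPC10 of the common set, and RPB3, RPB11 and RPB9 of Pol II. A further 6 were lower on some of the scales (RPA190, RPA49, RPO31, RET1, RPB7 and RPB4). RPC37, RPO21 and RPB2 were higher on some of them, 0 were higher on all 5, and 0 passed in both directions. Median centring is the 75th percentile scale with every change lowered by the same amount (median of all genes 0.11 and -0.047). It is therefore not a separate check on the genes that were lower before it. Of all 5816 genes, 1398 were called lower with normexp, the fewest on any of these scales, and 2447 after median centring, the most. At most 1398 of all genes can therefore be lower on every one of the 5 scales. Their exact number was not counted, so the 20 subunit genes have no matching share of all genes beside them.

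**Figure D4:**
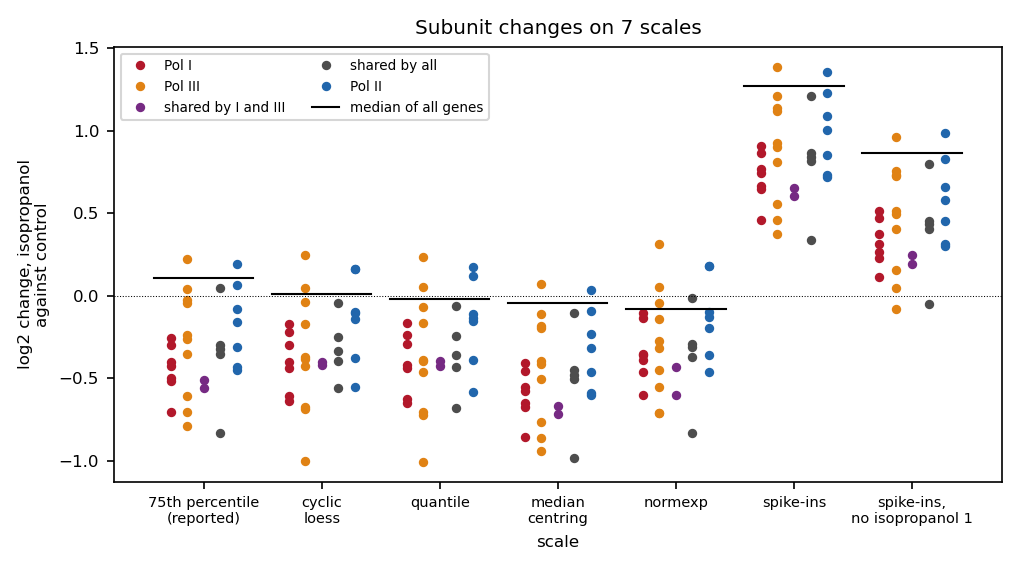
Log2 change (y axis, isopropanol against control) of each subunit gene on 7 scales (x axis), coloured by enzyme, with a black line at the median of all genes. On both spike-in scales all genes lie higher (median 1.27 and 0.86 over all genes), and the subunit genes keep a lower median than all genes on each of the 7 scales. Median centring and spike-in scaling subtract the same value from all genes of an array, so they cannot move the subunit genes relative to all genes. Only normexp, quantile normalization and cyclic loess could have.

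The place of the genes on the chromosomes offered another view. RPA190 and RPA43 are neighbours that are read away from each other, and both fell (log2 -0.30 and -0.52). Among the other subunit genes 19 have a divergent neighbour outside the family, of which 5 fell, 8 rose and 6 did not pass, where 30.1% of all genes fell and 47.6% rose. RPC25 and its neighbour LTV1, a gene for small ribosomal subunit assembly, both fell, the latter by 0.71 (SE 0.06; limma adjusted p = 1.30e-06). Other pairs went opposite ways: beside RPC34 the neighbour SWM2, which acts in RNA cap modification, rose by 0.54 (SE 0.05; limma adjusted p = 6.16e-06). Beside RPC37, which rose, the ribosome assembly helicase gene DBP7 changed by -0.38 (SE 0.04; limma adjusted p = 6.99e-06). Beside RPO26 the neighbour PZF1, which encodes the Pol III factor TFIIIA for 5S RNA, changed by 0.078 and did not pass (limma adjusted p = 0.122).

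Genes for the partners of the polymerases were counted against the same shares of all genes, 47.6% that rose and 30.1% that fell. Over all of these lists 42 genes rose on the reported scale, but 11 with normexp and 22 to 24 after quantile normalization, median centring or cyclic loess. Dim genes tended to rise: the median change of all genes was 0.54, 0.42 and 0.25 in signal classes 1, 2 and 3. Of the genes named below, RTR1 was in class 1, SPT5 and BUR2 in class 2, and RRN5, UAF30, SSN2 and SRB8 in class 3. The other named genes that rose were in class 4 or higher. Of 9 Pol I initiation factor genes 2 fell and 3 rose (median 0.00041). RRN3, whose product brings Pol I to its promoter through Rpa43, stood at 0.01, 0.16, 0.05 and -0.02 on the control arrays and -0.67, -0.73, -0.71 and -0.64 on the isopropanol arrays, a fall of 1.66-fold (log2 -0.73, SE 0.05; limma adjusted p = 2.95e-07). The upstream factor genes RRN5 (log2 0.54, SE 0.11) and UAF30 (log2 0.54, SE 0.06) rose, but not with normexp (adjusted p = 0.422 and 0.876). Of 8 Pol III initiation factor genes 6 rose and 0 fell, led by the TFIIIC genes TFC4 (log2 0.30, SE 0.05), TFC6 (log2 0.27, SE 0.03) and TFC1 (log2 0.26, SE 0.04). TFC1 and TFC4 did not pass with normexp, quantile normalization or cyclic loess (adjusted p from 0.118 to 0.818). MAF1, for the repressor of Pol III, rose 1.25-fold (log2 0.32, SE 0.05; limma adjusted p = 0.000258). SPT15, for the TATA-binding protein that all 3 enzymes use, fell 1.30-fold (log2 -0.37, SE 0.04; limma adjusted p = 2.22e-05), but did not pass with normexp (adjusted p = 0.0522).

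On the Pol II side 9 of 18 general transcription factor genes rose and 4 fell (median 0.17), with SSL1 (0.54), TFA1 (0.49) and SSL2 (0.44) highest. SSL1 and SSL2 did not pass with normexp (adjusted p = 0.157 and 0.149). Of 18 elongation factor genes 5 rose and 8 fell (median -0.080). SPT4 fell 1.70-fold (log2 -0.76, SE 0.05), while BUR2 rose by 0.47 and SPT5, the partner of SPT4, by 0.33 with groups that overlapped. SPT5 and BUR2 had a negative sign with normexp (-0.25 and -0.042), and SPT5 also after quantile normalization and cyclic loess. BUR2 did not pass on those scales either (adjusted p = 0.401 and 0.184), and SPT5 did not pass in 5 of the 8 fits that left out 1 array. Of 25 Mediator genes 13 rose and 3 fell (median 0.16), led by SSN2 (0.87), SRB8 (0.62) and SSN3 (0.56) of its kinase module, of which SSN2 and SRB8 did not pass with normexp (adjusted p = 0.165 and 0.353). Of 7 polymerase assembly and import genes 4 rose and 2 fell, among them RTR1 (0.69, but -0.38 and not passing with normexp, and not passing after quantile normalization), RBA50 (0.50) and GPN3 (-0.41). RPO41, for the separate mitochondrial RNA polymerase, rose 1.25-fold (log2 0.32, SE 0.04; limma adjusted p = 7.51e-05), and its cofactor gene MTF1 did not pass (-0.0094, 95% interval -0.12 to 0.11; limma adjusted p = 0.875), though it passed as lower after quantile normalization, median centring and cyclic loess (-0.18, -0.16 and -0.19).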

How the data were processed

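Per the labels' protocols, total RNA was copied to Cy3-labelled cRNA for Agilent arrays read in 1 colour. The deposited intensity values come from Feature Extraction, version 9.5.3.1 per the file headers and 9 per the submitters' processing notes, and the processed signal is background-subtracted and detrended but not scaled between arrays. The deposited series matrix holds log2 values relative to each array's 75th percentile (array medians -1.53 to -1.34, rank correlation with the scanner values of at least 0.997), in the same direction and without centring of genes; how it was made beyond this is not given in the sources used here. Spot flags in the deposited files were used to leave out 0 to 21 outlier spots per array.

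Processed signal was taken to log2, the 75th percentile over yeast spots was subtracted, and duplicate spots were averaged. Probes well above background on every array of a group were kept, the brightest per gene, and 5816 genes were tested with limma 3.58.1 in R 4.3.3 (lmFit, eBayes, Benjamini-Hochberg adjustment). The 4 arrays per group limit the precision. The fit was tested on simulated data. Names come from the RefSeq table (assembly R64), while the arrays follow an older annotation (sacCer1), so no coordinates are given. Members, lists and tests were chosen with earlier results of these data known. Named genes are all members, with values per array for the up to 3 largest changes that passed in each enzyme, those against its median and those that did not pass, and the up to 3 largest that passed in each related list, with SPT15, MAF1, RPO41 and MTF1. Normexp used median in place of mean spot signals. The planned search of promoters for motifs was not run, since no sequences were used here.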

Additional observations from a re-analysis of the deposited data

Results flagged for a closer look

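In 140 groups of 4 arrays that were looked at, 4 held 1 array far from the other 3 by Dixon's test at its 95% critical value, and chance gives about 1 in 20 groups. For MAF1 control replicate 1 lay at -0.45, against -0.27 to -0.23 on the other control arrays. BUR2 was at -3.66 on control replicate 4, against -3.51 to -3.49. SSN2 was at -2.48 on isopropanol replicate 2, against -2.35 to -2.33. The log2 ratio of RPA190 over RPO21 was 0.059 on control replicate 4, against -0.024 to -0.017 on the other control arrays, each relative to the control mean. No subunit gene by itself had such an array.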

How the results depend on the processing

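Subunit genes called lower numbered 20 to 26 with normexp, quantile normalization, median centring, cyclic loess, the authors' processed values, the mean of probes, both other filters and both doubtful arrays left out, and 23 in each fit without 1 array. Higher genes were 0 after median centring, against 2. The replicate numbers did not pair the arrays (correlations of same-numbered deviations -0.16 to 0.041, and 0 of 4 arrays best matched to their own number). With the replicate block 23 genes were lower and 2 higher. Without 1 array in turn the signs of RPC53 (-0.054 to 0.16), RPB10 (-0.0049 to 0.13) and MTF1 (-0.033 to 0.024) turned, none of which passed.

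On the spike-in scale, with and without isopropanol replicate 1, 0 subunit genes were lower in all and in each enzyme group, as were 0 related genes. Higher subunit genes then numbered 11 and 18, and higher related genes 78 and 82, against 42. Related genes called higher were 11 (normexp), 22 (quantile normalization), 24 (median centring) and 24 (cyclic loess), and those called lower 11 with normexp and 35 after median centring, against 20. Signs turned on the spike-in scale for RPA190 0.87, RPA135 0.76, RPA49 0.91, RPA34 0.46, RPA43 0.64, RPA14 0.74, RPA12 0.67, RPO31 1.12, RET1 1.14, RPC82 0.92, RPC34 0.46, RPC31 0.90, RPC25 0.56, RPC17 0.38, RPC11 0.81, RPC40 0.60, RPC19 0.65, RPB5 0.81, RPO26 0.33, RPB8 0.84, RPC10 0.87, RPB3 0.73, RPB11 0.85, RPB7 1.09, RPB4 1.0046, RPB9 0.72, RRN3 0.43, SPT15 0.79, SPT4 0.40, GPN3 0.76 and MTF1 1.15. Without isopropanol replicate 1 they turned for RPA190 0.47, RPA135 0.37, RPA49 0.52, RPA34 0.11, RPA43 0.26, RPA14 0.31, RPA12 0.23, RPO31 0.73, RET1 0.73, RPC82 0.51, RPC34 0.045, RPC31 0.50, RPC25 0.15, RPC11 0.40, RPC40 0.19, RPC19 0.25, RPB5 0.41, RPB8 0.44, RPC10 0.45, RPB3 0.31, RPB11 0.45, RPB7 0.66, RPB4 0.58, RPB9 0.30, RRN3 0.017, SPT15 0.40, GPN3 0.35 and MTF1 0.76. The spike-in scale subtracts the same value from all genes of an array, so it moved every change by the same amount, 1.16. Without isopropanol replicate 1 that amount was 0.76, relative to the reported scale without that array. These turns of sign are therefore not separate results for each gene. The cause of the shift itself was not tested.

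On other scales signs turned for RPO31 with normexp (0.051), RET1 after quantile normalization and cyclic loess (0.050 and 0.047), RPO21 after median centring (-0.091) and SPT5 with normexp, quantile normalization and cyclic loess (-0.25, -0.12 and -0.074). BUR2 (-0.042) and RTR1 (-0.38) turned with normexp, and MTF1 in the authors' processed values (0.00098). RPC53 turned with normexp, quantile normalization, median centring and cyclic loess (-0.14, -0.17, -0.11 and -0.17), and so did RPB10 (-0.017, -0.065, -0.11 and -0.045).

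Lower counterpart ratios with groups apart numbered 7 to 12, against 9, and higher ones were 2 after quantile normalization, 2 with cyclic loess and 1 to 2 without 1 array in turn, against 1. With normexp RPC11 over RPB9 (-0.091) and RPA12 over RPC11 (0.059) turned. Of the 10 ratios that passed, 2 did not pass after quantile normalization or cyclic loess (RET1 over RPB2 and RPA190 over RPO31), and 10 did not in the authors' processed values. In those values only the RPA190 ratios among the 10 changed in size. The replicate block and the fit without both doubtful arrays could pass no ratio, since their exact tests cannot go below 0.125 and 0.1. The planned motif search was not run.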
